A study of Mus musculus with 8 samples.

Results

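The 10 genes described here are Adipoq, Retn, Plin1, Cidec, Cidea, Scd1, Pck1, Aqp7, Pparg and Ucp1, a set of adipocyte genes read in whole soleus muscle as a possible sign of how much fat each muscle held. A member was taken from the probe sets annotated to exactly 1 gene symbol, with the brightest probe set kept for each gene. All 10 were measured, each by 1 probe set, out of 19938 genes tested. The soleus is a calf muscle rich in slow fibres. One array was run per mouse on the soleus of 4 Ts65Dn mice and of 4 wild-type colony controls (WT), whose strain is B6EiC3SnF1/J, a mix of B6 and C3H background. All were males of about 5 months, and the muscles were taken in the basal state under pentobarbital anesthesia. Ts65Dn mice model Down syndrome through an extra marker chromosome that carries the distal end of mouse chromosome 16 and the centromeric end of chromosome 17. None of the 10 genes lies in those segments. Adipoq is on chromosome 16, but on the centromeric side of the segment. The mice are apparently healthy colony animals, and the marker chromosome is present in every tissue, so the design does not separate an effect within muscle from one on the whole animal.

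White adipocytes store triglyceride in a single large droplet and secrete hormones that act on other tissues. The nuclear receptor Pparg, paired with a retinoid X receptor, switches on most genes of the mature cell. The lipid droplet coat protein Plin1 controls access of lipases to the droplet, and Cidec and Cidea promote droplet growth. Adipoq (adiponectin) and Retn (resistin) are secreted. Scd1 makes monounsaturated fatty acids, Pck1 supplies the glycerol backbone in fat cells, and Aqp7 is a water and glycerol channel. Ucp1 uncouples respiration in brown and beige adipocytes. In skeletal muscle, adipocytes sit between the fibres or cling to the muscle after dissection. Scd1, Cidec, Pparg and Aqp7 are also made by cells other than adipocytes, and Aqp7 is found in capillary endothelium.

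The upstream sequences of 4 genes on which the results turn are given here. Adipoq and Nnat, a gene of the endoplasmic reticulum membrane found in adipocytes, varied together over single arrays. Aqp7 was the member that differed between the groups, and Emcn, an endothelial sialomucin, is the endothelial marker whose array order was closest to it. Each window is the 250 bases before an annotated start in RefSeq, build GRCm38.p6, and 8 of the 10 members had at least 1 window. The windows are chr16:23146286-23146535 (plus strand) for Adipoq, chr2:157559828-157560077 (plus strand) for Nnat, chr4:41047963-41048212 (minus strand, the second of 2 listed starts) for Aqp7 and chr3:137340828-137341077 (plus strand) for Emcn. Capitals mark every match, on either strand, to the CCAAT box (CCAAT), to the nuclear receptor hexamer (AGGTCA), to a C/EBP site (TTGCNNAA) or to a sterol regulatory element (TCACNCCAC).
Adipoq: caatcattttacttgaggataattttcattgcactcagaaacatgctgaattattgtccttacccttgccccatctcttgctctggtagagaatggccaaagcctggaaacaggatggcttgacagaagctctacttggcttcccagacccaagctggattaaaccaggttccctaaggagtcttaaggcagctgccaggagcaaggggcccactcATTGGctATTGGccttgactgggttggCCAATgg
Nnat: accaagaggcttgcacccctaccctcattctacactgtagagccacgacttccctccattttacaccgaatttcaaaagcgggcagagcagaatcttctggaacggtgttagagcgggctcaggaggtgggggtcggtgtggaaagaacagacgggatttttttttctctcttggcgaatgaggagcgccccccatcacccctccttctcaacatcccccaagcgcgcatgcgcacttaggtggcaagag
Aqp7: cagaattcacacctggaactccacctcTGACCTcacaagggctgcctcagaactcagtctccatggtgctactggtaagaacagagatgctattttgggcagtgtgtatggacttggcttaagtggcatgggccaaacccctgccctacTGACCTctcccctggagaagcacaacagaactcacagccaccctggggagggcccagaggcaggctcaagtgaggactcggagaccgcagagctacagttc
Emcn: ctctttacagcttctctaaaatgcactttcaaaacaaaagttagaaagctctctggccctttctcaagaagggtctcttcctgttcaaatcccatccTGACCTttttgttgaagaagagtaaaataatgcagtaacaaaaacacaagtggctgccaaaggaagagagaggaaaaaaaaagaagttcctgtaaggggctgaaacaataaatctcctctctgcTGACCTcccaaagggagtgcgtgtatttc
The Adipoq window held 3 CCAAT boxes, a motif found in 33.8% of the 32851 windows of this length. The Nnat window held no match to any of the motifs. The Aqp7 and Emcn windows shown each held 2 nuclear receptor hexamers. At least 1 hexamer is in 14% of all windows and at least 2 are in 1.36%. The window of the other listed Aqp7 start held 1, and the Aqp7 window with more matches was the one chosen to be shown. The DR1 element, 2 such hexamers in direct repeat with 1 base between them and the classical site of Pparg with its partner, was searched as well and was in 0.0335% of all windows and in none of these 4. A match is a run of letters and not a measured binding site.

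The arrays themselves differed between the groups. The array median was 4.57 to 4.65 in Ts65Dn and 4.72 to 4.86 in WT (log2), and the interquartile range 2.70 to 2.81 against 2.09 to 2.48, with WT arrays 2 and 3 the narrowest. Level-matched values, in which each array's median deviation over the 100 non-member genes nearest in level is subtracted, are therefore given beside the deposited ones for the 10 genes and for other genes that were called or whose difference moved. Slow-fibre genes were bright in every array. The slow myosin heavy chain Myh7 was at 10.52 ± 0.10 in Ts65Dn and 10.26 ± 0.35 in WT, and the slow troponin Tnni1 at 10.08 ± 0.13 and 10.03 ± 0.06 (log2, SD, n = 4).

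The secreted hormone Adipoq spread widely over single muscles of both groups. It was at 7.22, 5.33, 5.90 and 6.63 in Ts65Dn replicates 1 to 4 and at 5.92, 5.39, 7.13 and 5.71 in WT replicates 1 to 4 (log2). Ts65Dn array 1 and WT array 3 were the brightest, Ts65Dn array 2 and WT array 2 the dimmest, and the groups overlapped over nearly their whole range. The brightest and the dimmest array lay 1.89 apart on the log2 scale, or 3.7-fold. The group means were 6.27 ± 0.83 and 6.04 ± 0.76 (log2, SD, n = 4), a difference of 0.23 with a 95% interval of -0.73 to 1.19 (limma adjusted p = 0.715), or 0.07 with level matching. In whole muscle, fewer adipocytes and less RNA per adipocyte cannot be told apart.

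Scd1, the fatty acid desaturase, had the widest spread of the 10 genes. It was at 8.56, 6.15, 6.59 and 7.69 in Ts65Dn replicates 1 to 4 and at 7.18, 7.22, 7.92 and 6.23 in WT replicates 1 to 4 (log2). Its 3 brightest arrays, Ts65Dn 1, WT 3 and Ts65Dn 4, and its dimmest, Ts65Dn 2, were those of Adipoq, and the groups overlapped. The range over the 8 arrays was 2.41 on the log2 scale, or 5.32-fold. The means were 7.25 ± 1.09 and 7.14 ± 0.69 (log2, SD, n = 4), a difference of 0.11 with a 95% interval of -0.98 to 1.21 (limma adjusted p = 0.885), and the level-matched difference had the opposite sign at -0.16. Both intervals include differences of over 1 on the log2 scale in one direction, so these arrays leave room for a sizeable group difference in either gene.

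**Figure D1:**
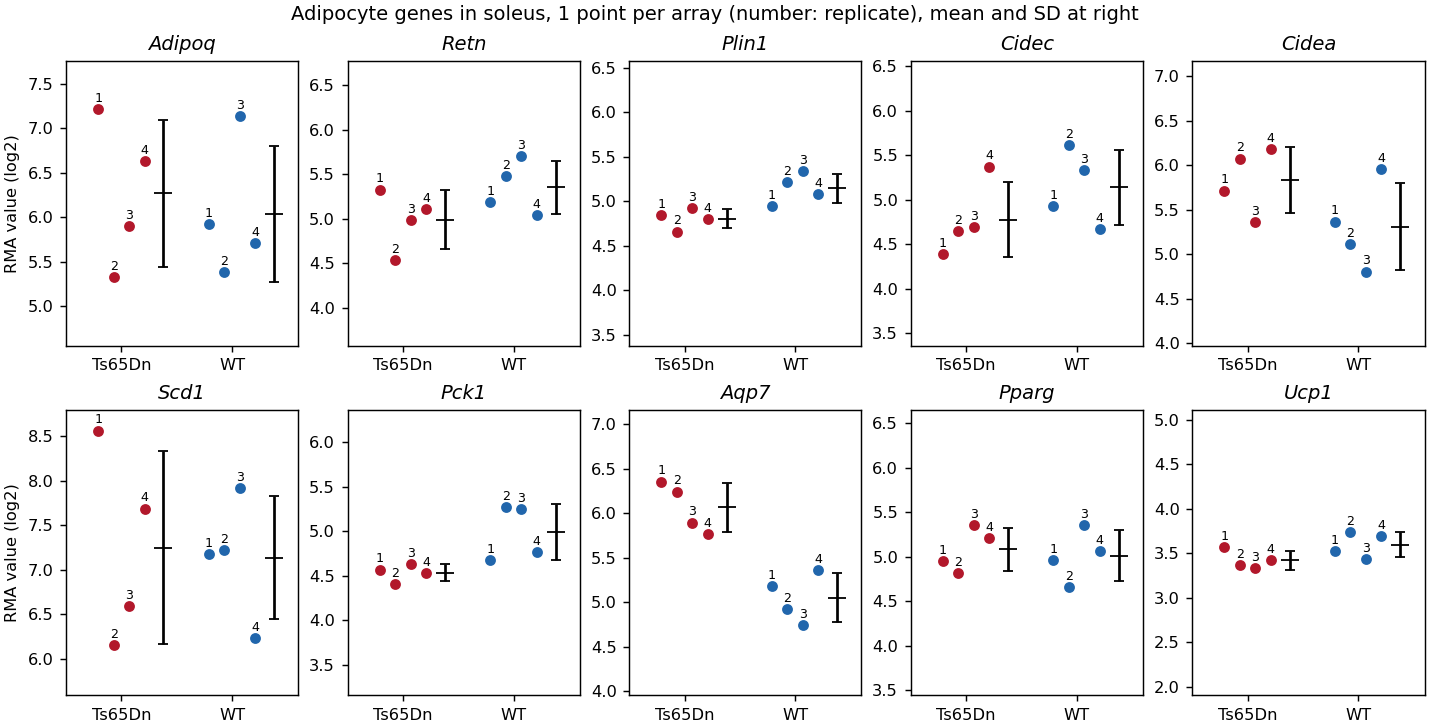
RMA values (log2) of the 10 adipocyte genes in 4 Ts65Dn and 4 WT arrays. Each point is 1 array with its replicate number, the bar at the right of each group is the mean with the SD, and every panel spans the same number of log2 units. Adipoq and Scd1 spread over 1.89 and 2.41 log2 units with overlapping groups, and the Aqp7 arrays of the groups do not overlap.

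The within-group SD set these genes apart from most others on the arrays. It was 0.79 for Adipoq and 0.91 for Scd1, against a median of 0.22 over all genes, and stood at percentiles 99.3 and 99.7 of all 19938 genes. Among the 100 genes nearest in level, Adipoq was at percentile 98 and Scd1 above all of them. By contrast the droplet coat gene Plin1 had a within-group SD of 0.14 (percentile 17) and the uncoupler Ucp1 one of 0.12 (percentile 10.9). The SDs of Cidec (0.42) and Cidea (0.43) lay at percentiles 91.1 and 92.1.

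Adipoq and Scd1 varied together over the 8 arrays, with Pearson r = 0.86 and Spearman rho = 0.86 (exact permutation p = 0.0069 and 0.0107, two-sided). Adjusted by Benjamini-Hochberg over the 45 pairs of the 10 genes, these exact permutation p-values were 0.0737 and 0.161 and did not pass. Without the 2 arrays farthest from the median of Adipoq, Ts65Dn 1 and WT 3, r was 0.65. Over deviations of each array from its own group mean r was 0.87, and 0.87 with level-matched deviations. The r was thus as high within the groups as over all arrays, and lower without the brightest array of each group.

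Resistin, Retn, joined this pair once the group means were removed. It was at 5.33, 4.54, 4.98 and 5.11 in Ts65Dn replicates 1 to 4 and at 5.19, 5.48, 5.71 and 5.04 in WT replicates 1 to 4 (log2), with means of 4.99 ± 0.33 and 5.36 ± 0.30 (SD, n = 4). The brightest array was WT 3 and the dimmest Ts65Dn 2, and the groups overlapped (difference -0.37, limma adjusted p = 0.199). The difference was -0.21 with level matching, -0.22 without Ts65Dn array 2 and -0.13 without WT arrays 2 and 3. Over deviations from the group means its r was 0.90 with Scd1 and 0.81 with Adipoq, and 0.96 and 0.86 with level-matched deviations. Pooled over the 8 arrays, r with Scd1 was 0.71 and rho 0.81 (exact permutation p = 0.0466 and 0.0218, or 0.205 and 0.163 adjusted over the 45 pairs), and 0.55 without Ts65Dn 2 and WT 3. Pooled r with Adipoq was 0.57 and rho 0.55 (exact permutation p = 0.146 and 0.171, or 0.409 and 0.453 adjusted over the 45 pairs), and r was 0.17 without both Ts65Dn 1 and WT 3. It was 0.36 without WT array 3 alone, 0.58 without Ts65Dn array 1 alone and 0.84 without WT array 2, so that this pooled relation depended on which arrays were kept.

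**Figure D2:**
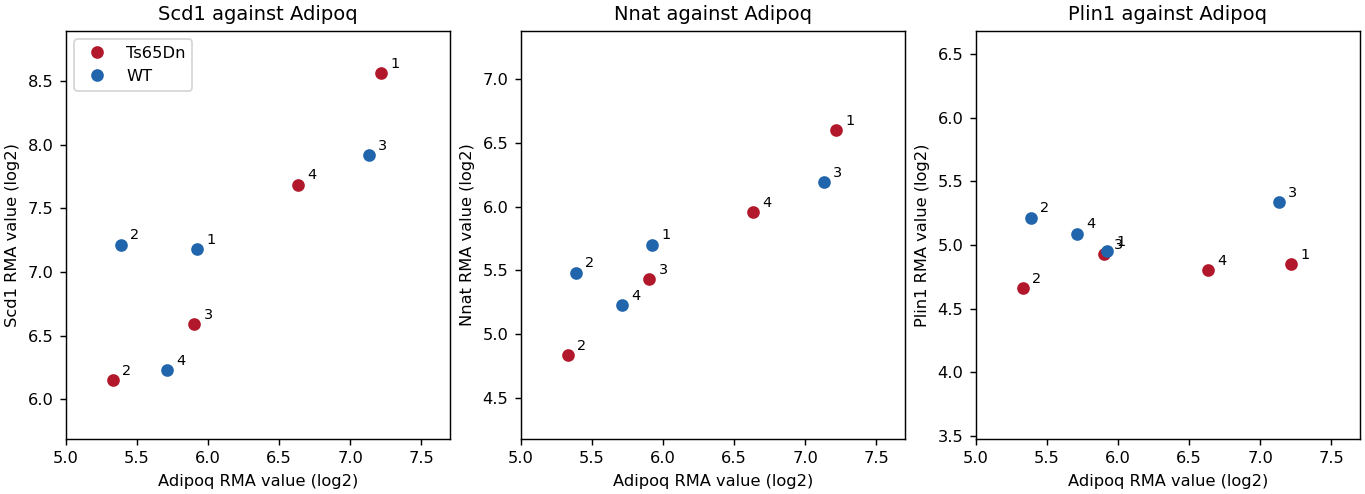
RMA values (log2) of Scd1, Nnat and Plin1 against Adipoq, 1 point per array with its replicate number, red for Ts65Dn and blue for WT. Scd1 and Nnat follow Adipoq in both groups, with r of 0.86 and 0.93 over 8 arrays, while Plin1 stays within 0.68 log2 units at every level of Adipoq.

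The droplet genes did not follow Adipoq. Plin1 was at 4.85, 4.66, 4.93 and 4.80 in Ts65Dn replicates 1 to 4 and at 4.95, 5.21, 5.34 and 5.09 in WT replicates 1 to 4 (log2). Every WT array was brighter than every Ts65Dn array, with means of 4.81 ± 0.11 and 5.15 ± 0.17 (SD, n = 4), but the difference of -0.34 did not pass (limma adjusted p = 0.0921) and was -0.13 with level matching. Cidec was at 4.39, 4.65, 4.69 and 5.37 in Ts65Dn and at 4.93, 5.61, 5.34 and 4.67 in WT, in the same replicate order (log2). Its groups overlapped, and the difference was -0.36 (limma adjusted p = 0.297), or -0.16 with level matching and -0.03 without WT arrays 2 and 3. Cidea, which is more abundant in brown fat, was at 5.72, 6.08, 5.36 and 6.18 in Ts65Dn and at 5.37, 5.11, 4.81 and 5.96 in WT (log2). Its 2 dimmest arrays were WT 2 and 3, and the difference of 0.52 (limma adjusted p = 0.164) was 0.48 with level matching and 0.17 without them. Their r with Adipoq over deviations from the group means was 0.49 for Plin1, 0.04 for Cidec and -0.33 for Cidea.

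Pck1, which feeds glycerol synthesis, was at 4.57, 4.40, 4.63 and 4.53 in Ts65Dn replicates 1 to 4 and at 4.67, 5.27, 5.25 and 4.76 in WT replicates 1 to 4 (log2). The groups did not overlap, and WT arrays 2 and 3 stood highest. The means were 4.53 ± 0.10 and 4.99 ± 0.31 (SD, n = 4), a difference of -0.46 that did not pass (limma adjusted p = 0.0818) and was -0.19 both with level matching and without WT arrays 2 and 3. It passed without WT array 1 (-0.56, limma adjusted p = 0.0448). Pck1 and Plin1 had r = 0.89 over deviations from the group means and 0.77 with level-matched deviations. Theirs was also the 1 pair of 45 that passed the exact permutation test over all 8 arrays after adjustment. Because the groups do not overlap for either gene, a pooled r also holds the difference between the groups and is not given for such genes.

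The array median moved with several of these genes. Over deviations from the group means its r was 0.91 with Pck1, 0.75 with Plin1, 0.70 with Cidec, -0.73 with Cidea and -0.80 with Aqp7, and 0.06 with Adipoq and 0.16 with Scd1. In all, 5 of the 10 genes had an absolute r of at least 0.7 with it, beside 26.5% of all genes. Over the 8 arrays without removing group means the same count was 5, beside 46.5% of all genes. The part of the array median in the values of these genes was not tested beyond the level-matched values given with them.

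Neither Pparg nor Ucp1 passed the test. The receptor Pparg was at 4.95, 4.81, 5.35 and 5.21 in Ts65Dn replicates 1 to 4 and at 4.96, 4.66, 5.36 and 5.06 in WT replicates 1 to 4 (log2). The groups covered almost the same range, with a difference of 0.07 (95% interval -0.31 to 0.45, limma adjusted p = 0.783), or 0.37 with level matching. Ucp1 was at 3.56, 3.36, 3.33 and 3.42 in Ts65Dn and at 3.52, 3.74, 3.43 and 3.69 in WT (log2). By its mean over the 8 arrays it had the lowest level of the 10 probe sets. It was the only one below the median level of all genes, 4.72. Its difference was -0.18 (limma adjusted p = 0.301), and 0.06 with level matching. By the same mean Pck1 was at 4.76, Cidec at 4.96, Plin1 at 4.98, Pparg at 5.04 and Retn at 5.17, not far above 4.72. Whether these low levels affected their r with Adipoq was not tested.

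**Figure D3:**
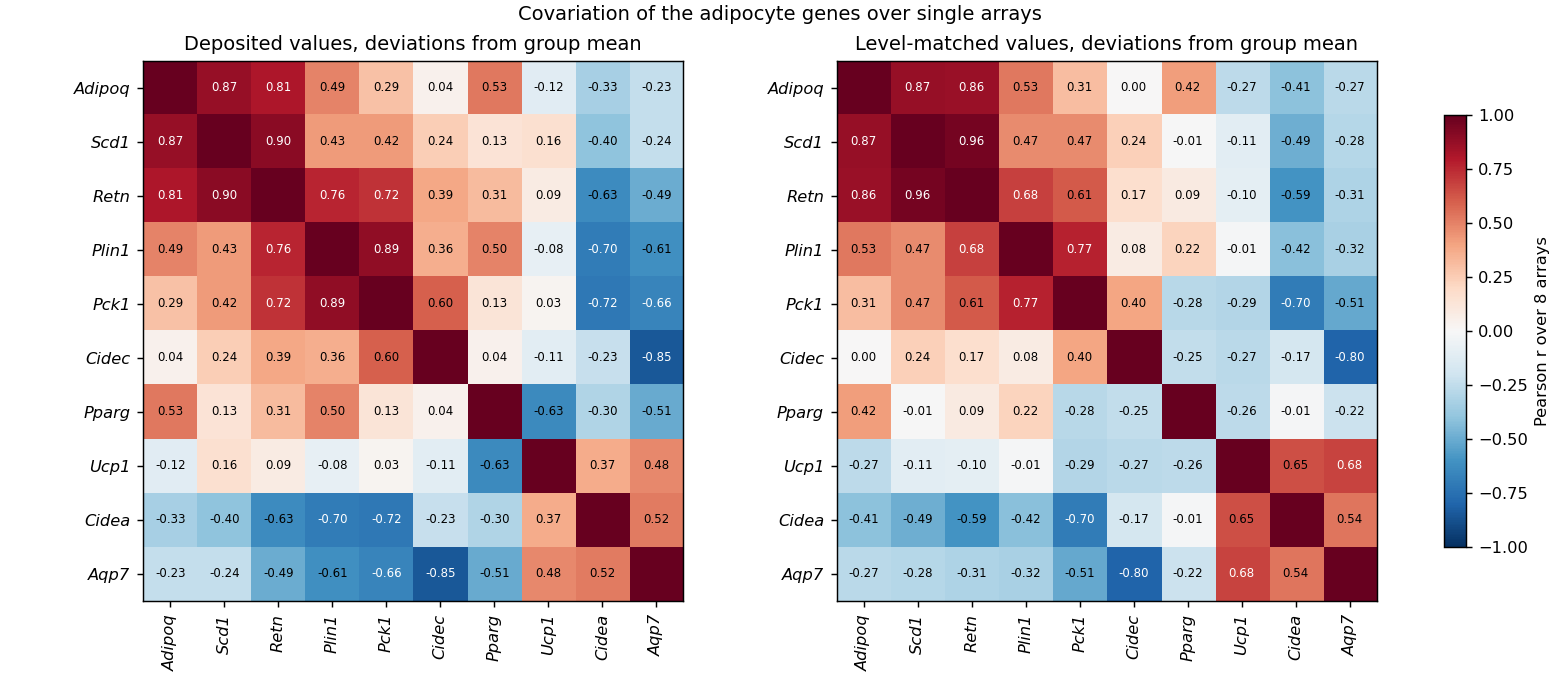
Pearson r between each pair of the 10 genes over 8 arrays, from deviations of each array from its group mean, for deposited values (left) and level-matched values (right), on a colour scale from -1 to 1. Adipoq, Scd1 and Retn form a block with r of 0.81 to 0.90 on the left, Plin1 and Pck1 reach 0.89, and Cidea and Aqp7 run against them.

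As a set, the 10 genes did not rise and fall together. Over deviations from the group means, 27 of the 45 pairs had a positive r and 18 a negative one, with a median of 0.13. An r of at least 0.7 was held by 6 pairs, all among Adipoq, Scd1, Retn, Plin1 and Pck1, and an r of -0.7 or lower by 3, each with Cidea or Aqp7. With level matching the median was -0.01, and 4 pairs reached 0.7. For Adipoq alone with every other gene on the arrays, the median r over deviations was 0.03. That is no background for pairs without Adipoq. The r of Adipoq with the array median was 0.06, while 5 of the 10 genes had an absolute r of at least 0.7 with it. The mean deviation over the 10 genes was 0.26, -0.27, -0.12 and 0.18 in Ts65Dn replicates 1 to 4 and -0.10, -0.03, 0.21 and -0.13 in WT replicates 1 to 4 (log2). The highest arrays by this mean were again Ts65Dn 1, WT 3 and Ts65Dn 4, and the groups differed by 0.03 with a within-group SD of 0.21. A measure of fat content on which all 10 genes rise and fall together was not seen in these arrays, and the pairs with the highest r over deviations were Retn with Scd1 (0.90), Plin1 with Pck1 (0.89) and Adipoq with Scd1 (0.87).

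Aqp7, the glycerol channel, was the member that passed the test between the groups. It was at 6.35, 6.24, 5.89 and 5.77 in Ts65Dn replicates 1 to 4 and at 5.18, 4.92, 4.74 and 5.36 in WT replicates 1 to 4 (log2). All 4 Ts65Dn arrays were above all 4 WT arrays. The means were 6.06 ± 0.28 and 5.05 ± 0.27 (SD, n = 4), so that Aqp7 rose by 1.01 (SE 0.18, 95% interval 0.62 to 1.40, limma adjusted p = 0.0456), or 2.02-fold. The difference stayed between 0.80 and 1.20 over 18 alternatives but passed in 8 of them. The adjusted p was 0.0539 with level matching, 0.0785 with quantile normalization and 0.193 without WT arrays 2 and 3, and it missed the threshold when Ts65Dn array 1, 2, 3 or 4 or WT array 2 or 3 was left out.

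Of the 10 genes, 1 was called, in the higher direction, beside 5.26% of all genes called in either direction 2.32% called higher and 2.94% called lower. With level matching 0 members were called by limma, beside 0.451% of all genes. In the same level-matched fit 2 members had an unadjusted limma p under 0.05, beside 4164 of all 19938 genes. The groups did not overlap for 3 members, beside 22.7% of all genes. Of these Aqp7 was higher, beside 6.81% of all genes, and Plin1 and Pck1 were lower, beside 15.9%. These 3 also had an unadjusted limma p under 0.05, as did 34.8% of all genes. The median difference over the 10 genes was -0.05, beside -0.10 over all genes, and 5 of 10 were positive, beside 39.2% of all genes.

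**Figure D4:**
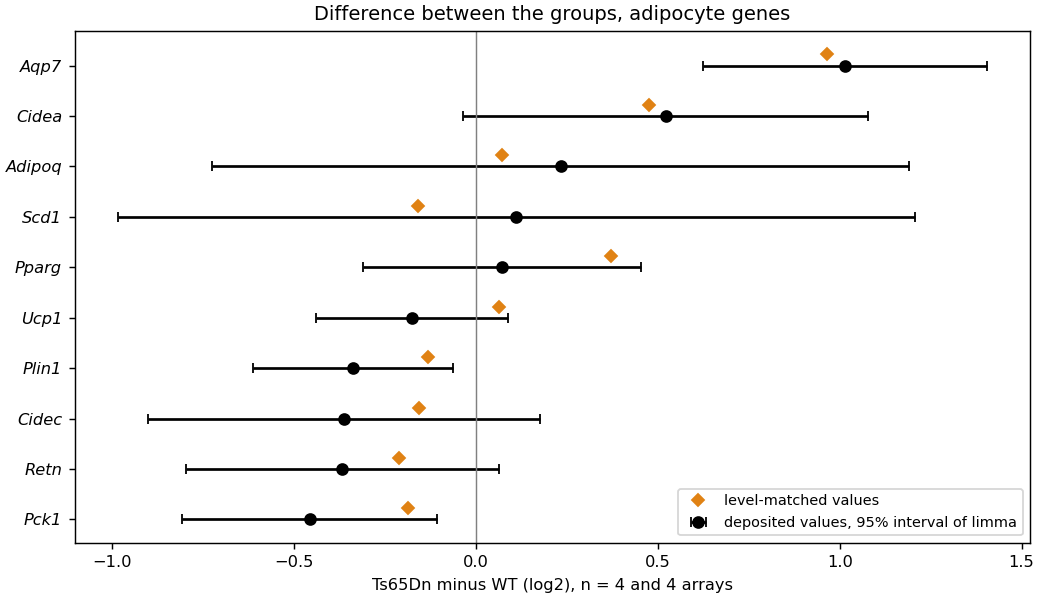
Difference between Ts65Dn and WT (log2) for each of the 10 genes, with the 95% interval of the limma fit (black, 4 arrays per group) and the level-matched difference (orange). The interval of Aqp7, 0.62 to 1.40, is the farthest from 0, and those of Adipoq and Scd1 are the widest.

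The endothelial marker Emcn had nearly the array order of Aqp7, and the endothelial genes as a list did not share it. Of 7 endothelial genes measured, 2 were called higher, beside 2.32% of all genes. Kdr, a receptor of VEGF, rose by 0.99 (limma adjusted p = 0.0449) and Emcn by 1.18 (limma adjusted p = 0.0456). With level matching Kdr rose by 1.27 (limma adjusted p = 0.0160) and Emcn missed the threshold at 1.13 (limma adjusted p = 0.0561). Without WT arrays 2 and 3 neither passed, at 1.03 for Kdr (limma adjusted p = 0.165) and 0.73 for Emcn (limma adjusted p = 0.174). The other 5 did not pass, with differences of 0.74 for Tek, 0.58 for Pecam1, 0.54 for Cdh5, -0.04 for Tie1 and -0.30 for Cldn5. Pecam1 was at 0.35 without WT array 3 and 0.14 without WT arrays 2 and 3, and with level matching Cdh5 was at 0.17 and Tie1 at 0.21. The summed linear level of the 7 was 436 to 561 in Ts65Dn and 276 to 394 in WT. Emcn was at 6.57, 6.48, 6.19 and 6.21 in Ts65Dn replicates 1 to 4 and at 5.57, 4.84, 4.62 and 5.70 in WT replicates 1 to 4 (log2). Over deviations from the group means r with Aqp7 was 0.88 for Emcn and 0.22 for Kdr, and 0.91 and 0.79 with level-matched deviations. Across the other 5 endothelial genes the deposited r was -0.66 for Tie1, -0.01 for Cdh5, 0.18 for Cldn5, 0.31 for Pecam1 and 0.57 for Tek. Within the groups Emcn also ran against the array median (r = -0.97), as did Aqp7 (r = -0.80). Pooled over the 8 arrays, 12.4% of all genes had an r of at least 0.7 with Aqp7, a share that also holds the group difference. The relations with endothelial genes were looked for after the values of Aqp7 were seen. The part of endothelial RNA in the Aqp7 difference was not tested.

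**Figure D5:**
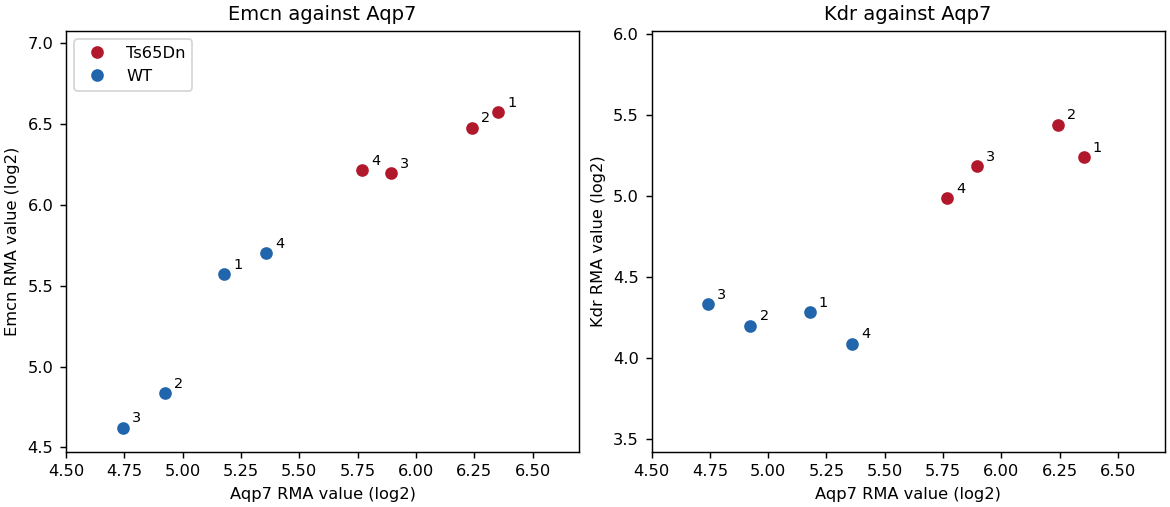
RMA values (log2) of the endothelial genes Emcn and Kdr against Aqp7, 1 point per array with its replicate number, red for Ts65Dn and blue for WT. All 4 Ts65Dn arrays lie above all 4 WT arrays for the 3 genes, and within the groups Emcn follows Aqp7 more closely (r = 0.88) than Kdr does (r = 0.22).

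Among other adipocyte genes, 20 of 22 listed were measured (Cfd and Adrb3 were not analysed here), and Nnat stood closest to Adipoq. It was at 6.60, 4.84, 5.43 and 5.96 in Ts65Dn replicates 1 to 4 and at 5.70, 5.48, 6.19 and 5.23 in WT replicates 1 to 4 (log2), with the same 4 brightest arrays as Adipoq and the same dimmest one. Pearson r with Adipoq was 0.93 and rho 0.93 (exact permutation p = 0.000620 and 0.00223, two-sided; 0.0124 and 0.0446 adjusted over the 20 relations), and r was 0.82 without Ts65Dn 1 and WT 3. Leptin, Lep, had r = 0.73 and rho = 0.71 (exact permutation p = 0.0393 and 0.0576, or 0.269 and 0.384 adjusted), and r was 0.70 without these arrays. These were the 2 of 20 genes with a pooled r of at least 0.7, beside 1.57% of all genes. Within the groups, over deviations from their means, 3 of 20 reached it, beside 4.3% of all genes: Nnat (0.93), Sncg (0.88), a synuclein found in adipocytes, and Lep (0.75). With level-matched deviations 3 of 20 reached it, beside 5.0% of all genes: Nnat (0.93), Sncg (0.89) and the fatty acid binding protein Fabp4 (0.76), with Lep at 0.68. Hcar2 of the same list ran against Adipoq, with a pooled r of -0.71 (exact permutation p = 0.0404, or 0.269 adjusted over the 20 relations). Over deviations its r was -0.74, and -0.86 with level-matched deviations. The median pooled r of the 20 genes with Adipoq was 0.04, beside -0.02 for Adipoq with every other gene. The groups of Sncg did not overlap, at 5.70 to 6.26 in Ts65Dn and 6.29 to 6.75 in WT, and its difference of -0.37 did not pass (limma adjusted p = 0.130). Between the groups Nnat differed by 0.06 (limma adjusted p = 0.916) and Lep by -0.01 (limma adjusted p = 0.962).

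Other lipid genes of the list differed in how they varied with Adipoq. Fabp4, which endothelium also makes, was at 10.08 ± 0.14 in Ts65Dn and 10.06 ± 0.16 in WT (log2, SD, n = 4), and the droplet protein Plin4 at 5.73 ± 0.07 and 5.84 ± 0.08. Over deviations from the group means their r with Adipoq was 0.54 and -0.03, and that of lipoprotein lipase, Lpl, was -0.62. With level matching these were 0.76, -0.15 and -0.79. Within this list 1 of 20 genes was called, beside 5.26% of all genes: the retinol carrier Rbp4 rose by 1.47 (limma adjusted p = 0.0456). Rbp4 was at 6.41, 7.42, 6.40 and 5.56 in Ts65Dn replicates 1 to 4 and at 5.00, 5.15, 4.90 and 4.84 in WT replicates 1 to 4 (log2), so that all Ts65Dn arrays were higher, and its r with Adipoq over deviations was -0.54. Its difference was 1.43 with level matching (limma adjusted p = 0.0634) and 1.52 without WT arrays 2 and 3 (limma adjusted p = 0.200). The list had a median difference of -0.0006, beside -0.10 over all genes, with 10 of 20 genes positive, beside 39.2% of all genes.

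Of all genes with a range of at least 1 over the arrays, apart from the 10 described, the 10 most like Adipoq by Pearson r over 8 arrays were Nnat (0.93), the matrix protein Hmcn1 (0.92), the telomere factor Ten1 (0.91), Taf1d (0.89), 4930515G01Rik (0.88), Iffo1 (0.87), the histone gene H3c15 (0.85), the LIM protein Fhl3 (0.85), the homeobox factor Meox2 (0.85) and Tmem150a (0.85). Scd1 was at position 7 among the 5730 genes with such a range. None of the 10 was called between the groups, with limma adjusted p-values from 0.226 for Meox2 to 0.973 for H3c15. Only Nnat among them is on a list of adipocyte genes used here, and with 8 arrays and 19937 genes compared, these values are a description.

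Brown adipocyte genes gave no call. Of the 12 measured genes 3 were positive, beside 39.2% of all genes. The median was -0.14, beside -0.10 over all genes, or -0.0026 with level matching. Limma called 0, with 2 at an unadjusted p under 0.05, beside 34.8% of all genes. The proton channel gene Otop1 differed by -0.39 (limma adjusted p = 0.0624) and the potassium channel gene Kcnk3 by -0.37 (limma adjusted p = 0.0755). Elovl3, an elongase of brown fat, differed by -0.16 (limma adjusted p = 0.359), or 0.03 with level matching. The coactivator Ppargc1a, which muscle also expresses, differed by 0.41 (limma adjusted p = 0.179), or 0.16 with level matching.

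The pathways around Scd1 and the droplet genes showed single calls, beside 5.26% of all genes called in either direction. Of 14 genes of fatty acid synthesis 1 was called: the transcription factor Srebf1, which drives the pathway, fell by 0.53 (limma adjusted p = 0.0456), at -0.31 with level matching (limma adjusted p = 0.127) and -0.51 without WT arrays 2 and 3 (limma adjusted p = 0.194). Its groups did not overlap, at 4.68 to 4.92 in Ts65Dn and 5.25 to 5.42 in WT. Fasn, fatty acid synthase, differed by -0.20 (limma adjusted p = 0.355), and the elongase Elovl6 by -0.50 (limma adjusted p = 0.0522). With level matching these were 0.06 and -0.20. Acaca went the other way, at 0.73 (limma adjusted p = 0.0742), or 0.78 with level matching and 0.47 without WT arrays 2 and 3. Of the 14 genes 6 were positive with a median of -0.11, beside 39.2% and -0.10 over all genes. With level matching 8 of 14 were positive and the median was 0.11. Of 15 genes of triglyceride synthesis and droplets 1 was called: Dgat1, which makes triglyceride, rose by 0.76 (limma adjusted p = 0.0470), at 6.12 to 6.61 in Ts65Dn and 5.26 to 5.99 in WT. Its difference was 0.67 with level matching (limma adjusted p = 0.0782) and 0.50 without WT arrays 2 and 3 (limma adjusted p = 0.227). The droplet protein of muscle, Plin2, differed by 0.48 (limma adjusted p = 0.0745), or 0.15 with level matching. G0s2 of the same list differed by -0.61 (limma adjusted p = 0.109), or -0.82 with level matching. Of the 15 genes 8 were positive with a median of 0.08. With level matching 7 were positive and the median was -0.06. Of 8 lipolysis genes limma called 0, and 2 were at an unadjusted p under 0.05, beside 34.8% of all genes. The triglyceride lipase Pnpla2 differed by 0.40 (limma adjusted p = 0.152), or 0.19 with level matching. Aqp3 of the same list differed by -0.48 (limma adjusted p = 0.0545), or -0.275 with level matching. Of these 8 genes 6 were positive, or 5 with level matching.

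Partners of Pparg and receptors of the secreted hormones were listed next. Of 18 measured Pparg partners and adipogenic regulators limma called 0, and 7 were at an unadjusted p under 0.05, beside 34.8% of all genes. The median was -0.15, beside -0.10 over all genes. The retinoid receptor Rxrb differed by -0.48 (limma adjusted p = 0.0716), the mediator subunit Med1 by 1.05 (limma adjusted p = 0.0672) and Cebpa by -0.23 (limma adjusted p = 0.224). Med1 was at 0.39 without WT arrays 2 and 3 (limma adjusted p = 0.254), and Rxrb at -0.25 with level matching. Of 9 adipokine receptors and partners 2 were called higher, and 9 of 9 were positive with a median of 0.62, beside 2.32% of all genes called higher and 39.2% positive. With level matching 8 of 9 were positive and the median was 0.52. The list's median absolute r with the array median was 0.80 over the 8 arrays, and its mean deviation was lowest in WT array 3, at -0.88. Cdh13, a cell surface protein of endothelium and muscle that binds adiponectin, rose by 0.79 (limma adjusted p = 0.0456), and the leptin receptor Lepr by 0.62 (limma adjusted p = 0.0499). With level matching both missed the threshold, at 0.52 for Cdh13 (limma adjusted p = 0.0879) and 0.87 for Lepr (limma adjusted p = 0.0522). Without WT arrays 2 and 3 the limma adjusted p was 0.209 for Cdh13 and 0.201 for Lepr. Lepr was at 3.45 to 4.04 in Ts65Dn and 2.97 to 3.27 in WT, below the median level of all genes, 4.72. It passed in 0 of 8 fits with a single array left out, and Cdh13 in 2. The adiponectin receptors Adipor1 and Adipor2 differed by 0.08 (limma adjusted p = 0.748) and 0.90 (limma adjusted p = 0.0996). Adipor1 was at -0.17 with level matching, and Adipor2 at 0.48 without WT array 3.

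Fibro-adipogenic progenitors, the stromal cells from which adipocytes of muscle arise, were represented by 12 measured genes. Of these 1 was called higher and 1 lower, beside 2.32% and 2.94% of all genes. The progenitor receptor Pdgfra rose by 0.62 (limma adjusted p = 0.0456), at 5.48 to 5.83 in Ts65Dn and 4.79 to 5.28 in WT, and by 0.76 with level matching (limma adjusted p = 0.0445). It did not pass with quantile normalization (0.67, limma adjusted p = 0.0792) or without WT arrays 2 and 3 (0.65, limma adjusted p = 0.174), and it passed in 2 of 8 fits with a single array left out. Dlk1, a preadipocyte factor, fell by 0.83 (limma adjusted p = 0.0493), at 4.63 to 5.37 in Ts65Dn and 5.57 to 6.32 in WT, and differed by -0.79 with level matching (limma adjusted p = 0.0782) and by -0.54 without WT arrays 2 and 3 (limma adjusted p = 0.268). Lum, a matrix proteoglycan, differed by 1.02 (limma adjusted p = 0.0537), or 0.66 with level matching. The median of the list was 0.29, beside -0.10 over all genes. Over the 8 arrays r of Adipoq with the genes of this list had a median of -0.02, and none reached 0.7.

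Markers of other cells in the muscle were read in the same way. Of 8 macrophage genes 1 was called, beside 5.26% of all genes: Cd68, a lysosomal glycoprotein, rose by 2.39 (limma adjusted p = 0.0475). It was at 6.998, 6.33, 8.27 and 9.31 in Ts65Dn replicates 1 to 4 and at 5.37, 5.88, 4.34 and 5.77 in WT replicates 1 to 4 (log2), so that the groups did not overlap. The difference was 2.10 with level matching (limma adjusted p = 0.0908) and 2.16 without WT arrays 2 and 3 (limma adjusted p = 0.222). The macrophage marker Adgre1 was at 3.43 to 3.72 in Ts65Dn and 3.39 to 3.82 in WT. The summed linear level of the 8 genes was 389 to 1018 in Ts65Dn and 278 to 353 in WT. For the 7 genes besides Cd68 it was 278 to 383 and 227 to 316, and the groups overlapped. Limma called 0 of 10 fibre genes, 0 of 4 Schwann cell genes, 0 of 5 tendon genes and 0 of 1 red cell gene. At an unadjusted limma p under 0.05 were 0, 1, 1 and 0 of them, beside 34.8% of all genes. The r of Adipoq with the genes of each of these lists did not reach 0.7, pooled or over deviations from the group means. With level-matched deviations the tendon gene Comp (0.74) and the fibre gene Ckm (0.70) reached it, beside 5.0% of all genes. The fibre genes Myl3 (-0.83) and Atp2a2 (-0.77) ran against Adipoq there. The part of these other cells in the adipocyte values was not tested.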

How the data were processed

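Soleus RNA of 8 mice was measured on 1 array each. The submitters' processing notes name Affymetrix Expression Console 1.1 and RMA. The scale of the deposited table was taken as log2 because of its range, since no label states it. Higher is brighter, and genes are not centred. Which genome build the authors used is not stated in the labels. Of 35556 probe sets, 21789 have 1 gene symbol, 1621 several and 12146 none. For 21698 the Entrez identifier was found in RefSeq and the symbol there was used, whether or not it differed. The brightest probe set was kept for 999 genes with several.

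Groups were compared with limma 3.58.1 in R 4.3.3 (lmFit, eBayes), two-sided, with Benjamini-Hochberg adjustment over 19938 genes and a threshold of 0.05. No covariate was used. Correlations have exact permutation p-values over all orders of the 8 arrays. Python 3.11.15 and scipy 1.17.1 were used. Named genes are the members, up to 4 genes per list with the smallest p, several fixed by name and the 10 nearest to Adipoq. Other list genes were named after their values were seen. Members and lists were chosen with earlier results of these data known. The number of arrays limits the precision. Titles call the samples biological replicates. Alternatives were other normalizations, the brighter genes alone, averaged probe sets, a replicate block, array weights, an intensity trend, and leaving out arrays.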

Additional observations from a re-analysis of the deposited data

Results flagged for a closer look

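In a group of 4 arrays, 7 genes named or listed beside the members had 1 array far from the other 3, a gap that chance gives in about 1 of 20 groups. The 7 came from 176 groups examined, 88 genes in each genotype. Thrsp, a lipogenic gene, was at 6.69 in WT array 3 and 5.54 to 5.61 in the other WT arrays. Plin5, a droplet protein, was at 5.87 in WT array 3 against 5.21 to 5.30. Elovl6 was at 4.53 in WT array 2 against 4.16 to 4.20, and Klf4 at 6.08 in WT array 2 against 5.38 to 5.47. Acaca, the carboxylase of fatty acid synthesis, was at 6.11 in WT array 1 against 4.89 to 5.02. The tendon gene Tnmd was at 6.90 in WT array 4 against 4.78 to 4.88. Kcnk3 was at 4.90 in Ts65Dn array 4 against 5.25 to 5.29. None of the 10 adipocyte genes had such an array.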

How the results depend on the processing

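Every call lay close to the threshold. Of 19938 genes 1049 were called, and the count was 0 with quantile normalization and with the replicate block, 142 with cyclic loess, 90 with level matching, 436 of 9969 genes above the median level, 236 with array weights, 1 with WT arrays 2 and 3 left out, 1 with all 35556 probe sets adjusted together, and 0 to 2865 when single arrays were left out. Where limma called 0 genes, 4369 to 7014 had an unadjusted p under 0.05. Of the 10 members, 1 was called. The count was 0 with quantile normalization, level matching, the replicate block and WT arrays 2 and 3 left out, and 0 to 2 with single arrays left out. Over the alternatives 1 to 5 members had an unadjusted limma p under 0.05. The count of all 19938 genes at that p ran from 3351, without WT arrays 2 and 3, to 7708, without WT array 1. Among the 9969 genes above the median level it was 3505. Of 32 other adipocyte and brown adipocyte genes, 1 was called; 0 were with quantile normalization, cyclic loess, level matching, the replicate block, array weights and WT arrays 2 and 3 left out, and 0 to 4 with single arrays left out. With arrays centred at a common median, 911 genes were called higher and 79 lower, beside 462 and 587.

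Of the members' differences that did not pass, 4 changed sign. Scd1 (0.11) was at -0.17 with quantile normalization, -0.17 with cyclic loess, -0.16 with level matching, and ran from -0.33 to 0.48 over single arrays left out. Ucp1 (-0.18) was at 0.047 with quantile normalization, 0.0075 with median centring, 0.0729 with cyclic loess and 0.0623 with level matching. Adipoq (0.23) ran from -0.0827, without Ts65Dn array 1, to 0.60, and Pparg (0.07) from -0.0457 to 0.19. The causes were not tested. The r of Adipoq with Scd1 was 0.79 to 0.97 over 14 alternatives added after the data were seen, and with Nnat 0.89 to 0.98.

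The titles number the replicates and do not say whether equal numbers are pairs. Same-numbered arrays had correlations of deviations from 0.01 to 0.09, and 2 of 4 Ts65Dn arrays correlated best with the WT array of their own number. With so few arrays, these correlations do not settle whether equal numbers are pairs. With the replicate block the Aqp7 difference was 1.01 (limma adjusted p = 0.0530). Leaving out WT arrays 2 and 3 was planned with their narrow range already known.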
